A study of Homo sapiens with 2 samples.

Results

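In the small RNA library of U87MG, an established human glioblastoma cell line, abundant entries of a piRNA database carried the sequences of 5 tRNAs: tRNA-Gln, tRNA-Val, tRNA-His, tRNA-Asp and tRNA-Pro. An entry was a member of a group if its listed sequence shared at least 20 bases in a row, on the listed strand, with the group's index entry. The index entries were piR-36378 (Gln), piR-60576 (Val), piR-36041 (His), piR-44312 (Asp) and piR-36074 (Pro), which were chosen by their high read counts, so the reads of the groups are given as a description with no test. The rule found 12 of the 10487 piRNA entries: 7 for Val, 2 for His and 1 each for Gln, Asp and Pro. No entry fell into more than 1 group, and the rule left little room for this. The 5 index entries share at most 10 bases in a row with each other, and the longest piRNA entry has 33 bases. The tRNA names come with the rule. They rest on general knowledge of tRNA sequences, and were not checked against tRNA genes, whose sequences are not used here.

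The cells were untreated and grew in medium with 10% serum, and the series gives 1 small RNA library and 1 mRNA library. There was no replicate and no control cell, so no difference could be set against a spread between samples. The small RNA library had 27299683 piRNA reads and 11785001 miRNA reads, as raw counts per listed entry. Intervals in parentheses are exact Clopper-Pearson 95% intervals and cover counting error only, because there was no replicate. PCR copies of a molecule could not be told apart from separate molecules, so the intervals may be too narrow even for counting error.

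Transfer RNAs carry amino acids to the ribosome. Each folds into an acceptor stem, a D arm, an anticodon arm and a T arm, and its gene is read by RNA polymerase III from 2 internal control elements, the A box in the D arm and the B box in the T arm. Nucleases such as angiogenin cut mature tRNAs in the anticodon loop, which leaves 5′ and 3′ fragments. Such fragments overlap in length with piRNAs, the PIWI-bound small RNAs that silence transposons in germ cells, and many piRNA database entries carry tRNA sequence.

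The 5 index sequences are shown because nearly all reads of the groups lay in them. They are written 5′ to 3′ as DNA letters, as the authors' file lists them, with the A box in capitals. The motif searched was TNGNNNANNNG, a form of the A box with its partly variable positions set to N.
piR-36378 (Gln): ggttccaTGGTGTAATGGttagcactctg
piR-60576 (Val): ttccgTAGTGTAGTGGttatcacgttcgcc
piR-36041 (His): ggccgtgaTCGTATAGTGGttagtactctg
piR-44312 (Asp): tcctcatTAGTATAGTGGtgagtatccc
piR-36074 (Pro): ggctcgtTGGTCTAGGGGtatgattctcgg

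The 5 groups held 2789283 reads, 10.2% of the piRNA reads (10.2 to 10.2%), or 23.7 reads for each 100 miRNA reads. The index entries made up 99.5% of this. tRNA-Gln was highest with 1049699 reads in its only entry, or 3.85% of the piRNA reads (3.84 to 3.85%). tRNA-Val had 718157 reads over 7 entries, or 2.63% (2.62 to 2.64%). tRNA-His had 666791 reads over 2 entries, or 2.44% (2.44 to 2.45%). tRNA-Asp had 195853 reads, or 0.717% (0.714 to 0.721%), and tRNA-Pro 158783, or 0.582% (0.579 to 0.584%), each in 1 entry. The widest step in this order lay between His and Asp, with 3.40 times as many reads for His. The other steps were smaller, 1.46 times from Gln to Val, 1.08 times from Val to His and 1.23 times from Asp to Pro. Every step exceeded counting error as these intervals give it, and none could be compared with variation between cultures.

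The number of entries did not follow the number of reads. The Gln group had the most reads with 1 entry, whereas Val, with 7 entries, had fewer. Among the tRNA genes named in RefSeq (assembly GRCh38.p14), 28 carried a Val name, 20 a Pro name, 19 a Gln name, 13 an Asp name and 9 a His name. His thus had more reads than Asp and Pro with fewer named genes, and Pro had the fewest reads with more named genes than Gln, Asp or His. These gene counts take all anticodons of an amino acid together, and it is not known from these files which gene copies gave the reads.

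On the scale of the miRNAs in the same library, the index entries were abundant. Only miR-21-5p, the most abundant miRNA, had more reads than piR-36378. For piR-60576 (704713 reads) and piR-36041 (665466 reads) there were 2 such miRNAs, miR-21-5p and let-7i-5p with 857077 reads. piR-44312 came just after miR-26a-5p (206110 reads), with 7 miRNAs above it, and piR-36074 just after let-7b-5p (168106 reads), with 8 above it. Among all piRNA entries the 5 index entries ranked 5, 6, 7, 12 and 13.

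All 12 members held the A box motif, against 9.41% of all piRNA entries, and each held it at a single place. Entries with the motif held 90.5% of all piRNA reads, so it was common to most reads of the file. The members of a group overlap, so the 12 are not independent cases of the motif, and a match of letters does not show a working control element. None of the 12 held the B box motif GTTCNANNC, which 0.591% of all entries held, and none ended in CCA, the 3′ end added to mature tRNAs, as 2.23% of all entries did. Neither motif occurred on the opposite strand of a member, while 4.83% of all entries held the A box and 0.706% the B box there. The entries with the A box letters on that strand held 53.6% of all piRNA reads. Entries grouped in the same way around piR-60565 (Glu) held 53.4% of the piRNA reads, so some of them must be among these. The motif fixes few of its 11 letters, so a match on that strand does not show reads antisense to a tRNA. The letters of the A box were thus found in every member. All index entries hold it, so its presence in the other members follows largely from the shared run that the rule asks for. The members ended 10 to 17 bases after the A box. With background shares this low and sequences this short, the absence of the B box and of CCA from 12 members says little.

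The A box also gave a common ruler for where the entries begin. In most tRNAs the A box directly follows the 5′ strand of the acceptor stem, which has 7 bases. The index entries of Gln, Asp and Pro had exactly 7 bases before the motif. The His index entry had 8, with a G before the bases GCC. As background, tRNA-His is unusual in receiving an extra G at its 5′ end after transcription, through the enzyme THG1L. Whether the first G of piR-36041 was added in this way was not tested. The Val index entry had 5 bases before the motif and so began 2 bases further in than those of Gln, Asp and Pro.

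The 3′ ends were close together on the same ruler. The index entries ran on for 10 bases after the A box in Asp, 11 in Gln and His, 12 in Pro and 14 in Val. Member lengths ranged from 28 to 32 bases with a median of 30, against a median of 29 and a range of 22 to 33 over all entries. The GC content of members ranged from 42.9% in piR-44312 to 56.7% in piR-36074, with a median of 50%, the same as that of all entries. These are the lengths and ends of database entries, and the ends of the reads themselves are not given.

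Bases that are used as marks of piRNAs were found unevenly. A first-base U, listed as T, is common in primary piRNAs. It was present in 9 of 12 members, against 78.3% of all entries, but these 9 held 32.8% of the members' reads, because the index entries of Gln, His and Pro begin with G. Over the whole file, entries that begin with T held 59.4% of the reads. Secondary piRNAs tend to carry A at base 10, which was present in 0 of 12 members, against 32.7% of all entries. By reads such entries were few in the whole file too, with 5.88%. With 7 overlapping Val entries among the 12, these counts describe few separate sequences.

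All 12 members had at least 10 reads, as 12.7% of all piRNA entries did, and all 12 had at least 100, as 4.20% did. The index entries were picked for their reads, so their part in these counts is fixed by that choice. The other 7 members entered by sequence alone and had 171 to 8307 reads, against a median of 2 over all entries. They share long runs with an abundant entry, and how reads that match several entries were assigned is not given in the sources used here. Their counts therefore cannot be separated with certainty from those of the index entries.

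The Val group showed how reads fell on overlapping entries. Of the 6 other members, 5 are shown for their ends or a changed base, again with the A box in capitals; piR-43995 is piR-43996 without its last base.
piR-43993 (Val): tccgTAGTGTAGTGGttatcacgttcgcct
piR-60577 (Val): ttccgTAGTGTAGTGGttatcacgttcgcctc
piR-43994 (Val): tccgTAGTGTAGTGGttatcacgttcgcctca
piR-43996 (Val): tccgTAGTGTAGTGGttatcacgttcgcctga
piR-43997 (Val): tccgTAGTGTAGTGGttatcactttcgcct

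piR-60576 held 98.1% of the Val reads (98.1 to 98.2%), and the other 6 members together 13444 reads. piR-43993, which is the index sequence moved by 1 base at both ends, had 8307 reads, 84.8 times fewer. piR-60577 contains the whole index sequence with 2 more bases at the 3′ end and had 2319 reads, 304 times fewer. Of the 6, 5 began 1 base after the index entry and had 11125 reads together, and piR-60577 alone began at the same base. All 6 ended 1 to 3 bases beyond the index entry, so no Val member was a shortened form of it at the 3′ end. This holds for members only. Outside the rule, piR-36742, with 62472 reads and a single base difference, ended 1 base before the index entry.

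Among the Val entries that begin 1 base in, reads did not follow length. piR-43993, of 30 bases, is contained whole in piR-43994 (1454 reads), piR-43996 (936 reads) and piR-43995 (257 reads), and had 5.71, 8.88 and 32.3 times their reads. piR-43995, of 31 bases, had 3.64 times fewer reads than piR-43996, of 32 bases. A shorter and contained sequence therefore did not always have the higher count.

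Single bases also separated Val entries. Positions below are counted from 1 at the 5′ end of the entry named first. piR-43994 and piR-43996 have the same length and differ by C31G near the 3′ end, with 1454 and 936 reads, a ratio of 1.55. piR-43997 differs from piR-43993 by G23T and had 171 reads against 8307, 48.6 times fewer. Against the index entry the same base is G24T, and the ratio of 4121 between piR-60576 and piR-43997 was the widest between any members of the Val group.

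The His group had a second member at its 5′ end. piR-44984, shown because it differs from the index entry where tRNA-His is known to be altered, had 1325 reads against 665466 for piR-36041, a ratio of 502.
piR-36041 (His): ggccgtgaTCGTATAGTGGttagtactctg
piR-44984 (His): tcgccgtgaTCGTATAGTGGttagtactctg

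The entries share 29 bases and the same 3′ end. piR-44984 starts 1 base earlier and differs from piR-36041 by G1C, just before the shared bases. It held the remaining 0.199% of the His reads, and piR-36041 held 99.8% (99.8 to 99.8%). No His member began directly at the first shared base.

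For Gln, Asp and Pro no second entry met the rule, so the spread of their reads over ends cannot be described. Lowering the limit of 20 bases to 18 added no member, but for Val the limit left out an abundant entry. The member nearest to it was piR-43997, with a shared run of 22 bases and 171 reads. Just outside lay 3 Val entries with a shared run of 17 bases: piR-36742 with 62472 reads, piR-36743 with 956 and piR-43992 with 31. piR-36742 was higher than every member other than the 5 index entries and is described among the results for a closer look.

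The 5 index entries were distinct from each other. The longest run shared by any pair was 10 bases, gtatagtggt, between piR-36041 (His) and piR-44312 (Asp). It was followed by 9 bases, tagtggtta, between Val and His. piR-36074 (Pro) shared no run longer than 4 bases with the other index entries of the 5 groups. Both longer runs overlap the A box, the stretch that tRNAs have most in common at this end.

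The share of a group's reads in its highest entry was also taken under the same rule for 3 other abundant tRNAs. In the Glu group around piR-60565, 89.9% of 14565339 reads lay in the highest entry (89.8 to 89.9%), in the Gly group around piR-35982 86.6% of 6186149 (86.6 to 86.6%), and in the Lys group around piR-35412 60.9% of 719954 (60.7 to 61.0%). The Val group, with 7 entries like Glu and nearly the same reads as Lys, had 98.1% there, and His 99.8%. With up to 3 mismatches allowed the Val share was 90.1%, close to the Glu share of 89.9% under that setting, while His kept 99.8%. Most of the difference between Val and Glu therefore rested on the exact 20-base rule. Gly, with 86.6%, and Lys, with 60.8%, stayed lower than Val under that setting. With no replicate no difference could be tested beyond counting error. For Gln, Asp and Pro the share under the 20-base rule is complete by construction, since each had a single entry.

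Genes that charge, modify or cut these tRNAs were looked up in the mRNA library, whose values are FPKM (fragments scaled to gene length and library size). The list reported here was of 20 genes, of which 18 had a row and 17 were at 1 FPKM or more, as 64.6% of the 21445 listed genes were. The median of the 18 was 14.6 FPKM, against 2.96 over all listed genes. The depth of that library is unknown, so the values have no interval, and a level in 1 library does not bear on how many fragments were cut.

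Among the synthetases, which load the amino acid, QARS1 (Gln) was at 69.5 FPKM, EPRS1 (Glu and Pro) at 41.2 and HARS1 (His) at 41.2. EPRS1 and HARS1 were thus close in level, and a link between these levels and the reads of the groups was not tested. VARS1, for Val, had no row, nor did its mitochondrial counterpart VARS2. This does not show that they were not expressed. Of the 20 coding genes next to VARS1 in RefSeq order 2 had a row, and of the 20 next to VARS2 1 had. The mitochondrial synthetases HARS2 and PARS2 were lower, at 13.8 and 2.06 FPKM.

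Of the enzymes that modify tRNAs all 8 had a row. NSUN2, a cytosine methyltransferase of many tRNAs, was highest at 32.6 FPKM. QTRT2 (16.1) and QTRT1 (8.81) form the enzyme that places queuine in the anticodon of tRNA-His and tRNA-Asp, among others. PUS7, a pseudouridine synthase, was at 8.10, THG1L, which adds the 5′ G of tRNA-His, at 4.21, and TRDMT1, a methyltransferase of tRNA-Asp and a few other tRNAs, at 2.78. ADAT2 and ADAT3, which together make inosine in the anticodon of several tRNAs, Val and Pro included, were at 3.46 and 0.328. The latter was the only one of the 18 below 1 FPKM.

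The nuclease angiogenin (ANG) was at 3.14 FPKM and its inhibitor RNH1 at 118, the highest of the list. The genes for tRNA ends lay between, SSB, which binds new polymerase III transcripts, at 35.6, ELAC2, which cuts off the 3′ trailer, at 23.0 and TRNT1, which adds CCA, at 15.4.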

How the data were processed

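Small RNA and mRNA of untreated U87MG cells were each measured in 1 library. Per the labels' protocols, small RNAs were read as single-end reads of 50 bases. The authors deposited raw read counts per miRNA and per piRNA entry with each sequence, per the file headers, and FPKM per gene. The submitters' processing notes name cutadapt and the builds hg19 and GRCh37, without roles. No source used here names the aligner or the counter, or says how reads matching more than 1 entry were assigned.

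Members were found by shared runs of 20 bases, and the search was tested on simulated sequences. Python 3.11.15, pandas 2.3.3 and scipy 1.17.1 were used. Gene names were matched by Ensembl identifier, and neighbours came from RefSeq on GRCh38.p14. With 1 library of each kind there was no test. Alternatives were other run lengths, strands, totals, read minimums, collapsed sequences and mismatches. Named were the index entries, the 5 highest others and the lowest of each group, the 2 widest pairs that were nested or differed at 1 base, entries in more than 1 group, and all genes of the list of partner enzymes. Besides the 20 counted, 2 genes of that list are not reported here. The members and lists were chosen with earlier results of these data known.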

Additional observations from a re-analysis of the deposited data

Results flagged for a closer look

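Several entries outside the rule resembled an index entry over 20 or more aligned bases with at most 3 mismatches. This search was added after the sequences were seen. It found 6 entries with 72268 reads in all.

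piR-36742, with 62472 reads, was the highest of them and ranked 22 among all piRNA entries. It aligned with piR-60576 (Val) over 29 bases with the single difference T18C, counted from the 5′ end of piR-60576, and had 11.3 times fewer reads. It began 2 bases before piR-60576 and so had 7 bases before the A box, as the index entries of Gln, Asp and Pro did. Its 3′ end lay 1 base before that of piR-60576. T18C was shared by piR-36743 (956 reads), which is 1 base longer at the 3′ end, and piR-33519 (204 reads). These 3 entries held 8.14% of their own and the Val members' reads together (8.08 to 8.20%). piR-43992, with 31 reads, differed by G13C.
piR-36742 (Val, T18C): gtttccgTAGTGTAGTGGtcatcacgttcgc

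piR-31368, with 5918 reads, differed from piR-36074 (Pro) by G16T over 29 bases and began 1 base earlier. piR-36026, with 2687 reads, differed from piR-36378 (Gln) by T3C, T4C and T20C over 27 bases. In the miRNA part of the library, miR-4448 had 27 reads. Its 20 listed bases matched the start of piR-36074 with the single difference G6C.
piR-31368 (Pro, G16T): aggctcgtTGGTCTAGTGGtatgattctcg
miR-4448: ggctcctTGGTCTAGGGGta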

How the results depend on the processing

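The order Gln, Val, His, Asp, Pro was the same under all 9 other settings that gave a share for each group. This is a weak check. A changed total divides every group by the same number and cannot alter the order. No listed sequences were identical, so counting them once changed nothing. The remaining settings all kept the index entries, which held 99.5% of the member reads. Requiring 18 bases, counting the reverse complement, adding entries that match any member, counting identical sequences once or leaving out entries under 10 reads kept the number of members at 12 where it was recomputed, and requiring 24 bases left 11. Under these the shares stayed within their counting intervals. A read minimum of 2 or 100 kept all members.

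The shares follow the total by construction. With piRNA and miRNA reads together as the total, the 5 groups held 7.14%, Gln 2.69%, Val 1.84%, His 1.71%, Asp 0.501% and Pro 0.406%. Without the 2 most abundant entries in the total, the 5 groups held 31.5%, Gln 11.9%, Val 8.11%, His 7.53%, Asp 2.21% and Pro 1.79%. With up to 3 mismatches allowed, a setting added after the sequences were seen, there were 18 members with 10.5% of the reads, Gln 3.85%, Val 2.86% and Pro 0.603%, and piR-60576 held 90.1% of the Val reads. No paired analysis was possible because there is 1 library of each kind. Depth limits little here, whereas the unknown rule for shared reads limits every count of an overlapping entry.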
